A study of Mus musculus with 8 samples.

Results

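Mouse mitochondrial DNA is a small circular genome of its own, and the present section describes its genes in macrophages (Mϕ) that had or had not eaten apoptotic cells. Members were all genes of the mitochondrial chromosome whose symbol starts with mt-, found by matching the Ensembl identifiers of the deposited table to the GENCODE M39 annotation of the GRCm39 (mm39) build. They were 37 of 55359 listed genes and comprised 13 mRNAs, 22 tRNAs and 2 rRNAs. Total RNA-seq was performed on bone marrow-derived Mϕ of wildtype C57BL/6 mice, both sexes and adult, differentiated with M-CSF and GM-CSF. In the naïve control group (Ctrl) the Mϕ received neither apoptotic cells nor stimulus, and in the LPS group they were given 100 ng/mL LPS plus 100 U/mL murine IFNγ for 6 h. Efferocytic Mϕ (Eff) had been kept for 16 h with apoptotic NIH-3T3 fibroblasts, 5 per Mϕ, in 10 nM dimerizer, which triggers an engineered caspase-8 in that fibroblast clone. In the LPSEff group this co-culture was followed by a PBS wash and the same 6 h of LPS/IFNγ. CD45+ cells were isolated from the cultures with beads, and each group held 2 samples. Nothing in the sources states that the 2 samples of a group came from separate animals, so the p-values below measure only the spread between these samples. Whether the Ctrl and LPS cultures also received the dimerizer is not given in the sources used here.

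The mitochondrial genome is read from both of its strands into long precursor RNAs. The tRNAs lie between most of the mRNAs and rRNAs, and their excision releases the neighbouring transcripts. The mRNAs encode core subunits of respiratory complexes I, III, IV and V, the rRNAs (mt-Rnr1 for the small and mt-Rnr2 for the large subunit) build the mitochondrial ribosome, and the tRNAs decode the mRNAs. Everything that transcribes, cuts, modifies and degrades these RNAs is encoded in the nucleus. Classically activated Mϕ are known to lower oxidative phosphorylation, whereas Mϕ that digest apoptotic cells are known to use it for fuel derived from their cargo.

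The deposited values were read counts per gene divided by a size factor per sample, called normalized counts here. Dividing each sample by the value of 1 read returned whole reads for 100% of values, with 3481288 to 12020918 reads per sample. A floor of 3 reads corresponded to 1.73 to 5.71 normalized counts. All 10 Mϕ marker genes were expressed in every group, and their summed level ranged from 110471 to 165914 normalized counts. Fibroblast markers, 12 genes, summed to 164 to 346 normalized counts in Ctrl, 788 to 823 in LPS, 1960.2 to 3689 in Eff and 5010.5 to 5749 in LPSEff, and 5 of them averaged 10 or more in Ctrl, 8 in LPS and 10 in each efferocytic group. Both cell types are of mouse origin, so mitochondrial RNA of the Mϕ and of ingested NIH-3T3 cells cannot be told apart in these counts. The lymphocyte marker sums did not exceed 24.6 normalized counts. Neutrophil markers summed to 723 to 1118 in Ctrl, 1143 to 1618 in Eff and 1865 to 2647 over the 4 stimulated samples, and their part in the differences between groups was not tested.

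How much of the mitochondrial genome could be counted differed strongly between its genes. The measurement is limited by nuclear copies of mitochondrial DNA, that is, stretches of the mitochondrial genome that were inserted into chromosomes long ago. Reads that match both places are set aside by a counter that keeps only reads with a unique position, which is the default of htseq-count. Every window of 50 bases of the mitochondrial genome was therefore searched for exact copies in the nuclear chromosomes of GRCm39. The longest copy, chr1:24650616-24655265 on the minus strand, spanned 4650 bases and matched mitochondrial positions 6394 to 11042 with 1 mismatch and 1 additional base. A second, more diverged copy lay at chr2:22477300-22480546 and shared 1121 windows with positions 4441 to 7699.

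The counted reads followed these copies. No window touching mt-Co2, mt-Co3, mt-Atp6, mt-Atp8 or mt-Nd4l was unique, nor any touching the tRNA genes mt-Ty, mt-Ts1, mt-Td or mt-Tk, and these 9 genes together held 6 reads over all 8 samples, with a maximum of 3 for mt-Co3. By contrast, the 14 genes without a copied window held 703 to 126321 reads each. Another 5 tRNA genes had copies of every window inside the gene but unique windows reaching over an edge, and they held 36 to 841 reads. Partly copied genes numbered 9 and held 18 to 101434 reads. The 9 members with the fewest reads were thus the 9 without a unique window, and their near-0 values say nothing about whether cytochrome c oxidase subunits II and III or the ATP synthase subunits were expressed. The pseudogenes annotated inside the chromosome 1 copy held 1 to 82 reads each. On chromosome 2, Gm13341 and Gm13340 held 4692 and 2696 reads.

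**Figure D1:**
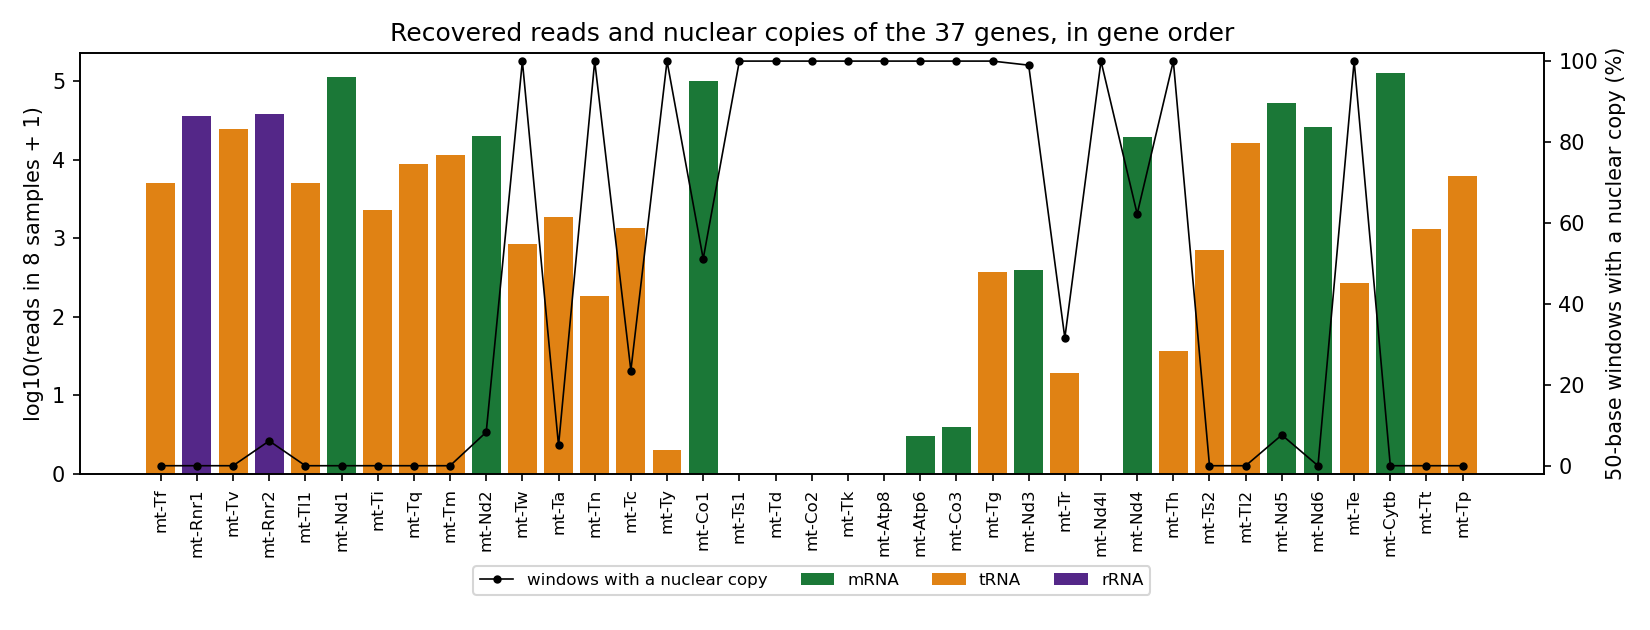
Bars give log10 of the reads summed over 8 samples plus 1 for each of the 37 genes in their order on the mitochondrial genome, coloured by RNA class. The black points give the percentage of 50-base windows inside each gene with an exact nuclear copy; the 9 genes at 100% from mt-Ty to mt-Nd4l with no unique window touching them hold 6 reads together, and mt-Co1, with 51.1% of its windows copied, still holds 101434.

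The clearest case was the junction of mt-Tg (tRNA glycine) and mt-Nd3 (a complex I subunit). Inside the long copy a single base at mitochondrial position 9461 differs from chromosome 1, and it makes 50 windows unique, from chrM:9412-9510. Both sequences are shown because all unique windows at this junction owe their uniqueness to that base, which is in capitals.
Mitochondrial, chrM:9412-9510, plus strand: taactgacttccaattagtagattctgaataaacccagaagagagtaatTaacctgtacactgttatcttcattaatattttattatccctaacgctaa
Nuclear copy, chr1:24652149-24652247, minus strand: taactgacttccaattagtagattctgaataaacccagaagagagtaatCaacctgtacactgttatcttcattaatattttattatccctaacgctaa

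The gene mt-Tg ends at position 9458, so any read that covers position 9461 and reaches mt-Tg also covers mt-Nd3. The reads of mt-Nd3 exceeded those of mt-Tg by 0 to 6 in the 8 samples. Their normalized counts, 14.2 to 83.3 for mt-Nd3 and 14.2 to 77.2 for mt-Tg, were nearly equal in each sample. How reads over both genes were assigned is not given in the sources used here beyond the default settings. Every unique window touching mt-Tg reaches mt-Nd3, yet mt-Tg held 366 reads, so reads over both genes entered its count. The counts of mt-Tg and mt-Nd3 are thus close to 1 measurement, not 2 separate ones, in the comparisons below. Whether other adjoining genes share reads was not tested, among them mt-Tv with both rRNAs and mt-Tm with mt-Nd2. Neither level was compared with that of another gene.

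The tRNAs on which the comparisons below turn are shown next, each as its gene sequence in the direction of transcription with the anticodon in capitals. The first pair was called in the comparison of LPSEff with Eff. The second pair differed between replicate numbers in the opposite direction to most other members in LPS, Eff and LPSEff.
mt-Tv (tRNA valine), chrM:1025-1093, plus strand: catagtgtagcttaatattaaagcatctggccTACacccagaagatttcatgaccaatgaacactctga
mt-Tm (tRNA methionine), chrM:3845-3913, plus strand: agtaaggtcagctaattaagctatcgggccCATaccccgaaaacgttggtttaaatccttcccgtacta
mt-Tt (tRNA threonine), chrM:15289-15355, plus strand: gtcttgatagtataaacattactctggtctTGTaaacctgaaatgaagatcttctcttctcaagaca
mt-Tp (tRNA proline), chrM:15356-15422, minus strand: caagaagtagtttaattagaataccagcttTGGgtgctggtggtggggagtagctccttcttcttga

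None of these 4 genes had a nuclear copy of any 50-base window. The mt-Tv gene sits between both rRNA genes, and mt-Tm carries methionine for initiation as well as elongation. The genes mt-Tt and mt-Tp adjoin each other on opposite strands next to mt-Cytb.

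Levels were compared between genes only per 1000 unique windows, as the mean normalized count over 8 samples with the lowest and highest sample. Among mRNAs, mt-Co1 (the catalytic subunit of complex IV) reached 17041 (8952 to 29006), mt-Nd1 (complex I) 14376 (8439 to 18102) and mt-Cytb (complex III) 13399.9 (7868 to 18801). These 3 ranges overlapped, so their order was not resolved. Further down stood the complex I subunits mt-Nd6 with 6483 (3349 to 12389), mt-Nd4 with 4621 (2657 to 7078), mt-Nd5 with 3789.7 (2129 to 6480.2) and mt-Nd2 with 2609 (1496.5 to 3474). Neighbours in this order overlapped throughout, while the range of mt-Nd2 lay wholly below those of the top 3. On the same scale mt-Rnr1 reached 5148 (1411 to 14203), which was not ranked against the mRNAs. Because rRNA was depleted before sequencing and rRNA reads were removed afterwards, rRNA levels were compared only between samples. Whether mitochondrial rRNA was among the targets is not given in the sources used here. Any depletion could also have differed between samples, and its part in the rRNA differences below was not tested. Counted tRNA fragments were short, so tRNA levels were not ranked against mRNAs.

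The remaining members tested are given by their range over the 8 samples, in normalized counts. Among mRNAs, mt-Nd2 ranged from 1357 to 3151, mt-Nd4 from 1334 to 3553, mt-Nd5 from 3492 to 10628 and mt-Nd6 from 1574 to 5823, all of them complex I subunits, and mt-Cytb from 8616 to 20588. Of the heavy-strand tRNAs, those for phenylalanine (mt-Tf) and leucine (mt-Tl2) ranged from 168 to 1005 and from 653 to 3048, and those for isoleucine (mt-Ti), serine (mt-Ts2) and tryptophan (mt-Tw) from 83.2 to 481, 28.9 to 135.1 and 29.8 to 170.1. These counts are not a ranking, as the genes differ in unique sequence. Of the light-strand tRNAs, mt-Tq (glutamine) ranged from 354 to 2185, mt-Ta (alanine) from 86.8 to 374, mt-Tc (cysteine) from 87.6 to 231, mt-Tn (asparagine) from 10.99 to 38.1 and mt-Te (glutamate) from 14.2 to 45.7. Eff replicate 1 was the lowest sample for 8 of these 10 tRNAs, all but mt-Tn and mt-Te.

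Summed over a class, all 3 RNA classes had their lowest sample in the Eff group and their highest in the LPSEff group. In replicates 1 and 2, respectively, mRNA summed to 52252 and 51798 normalized counts for Ctrl, to 42639 and 74713 for LPS, to 30595 and 51102 for Eff and to 49258 and 81042 for LPSEff. The Ctrl samples lay close together, while the other groups spread so widely that no group pair other than Ctrl and Eff was separated. The tRNA total was 11581 and 9751 in Ctrl, 11122 and 13144 in LPS, 4381 and 8125 in Eff compared with 10459 and 15807 in LPSEff. Both Eff samples were below all others in tRNA. The rRNA total was 8125 and 5335 in Ctrl, 9242 and 14950.3 in LPS, 2888 and 5173 in Eff, with 7228 and 23378 in LPSEff. Both Eff samples were again the lowest, and LPSEff replicate 2 stood alone at the top. In these bulk samples, fewer cells of a type and less RNA per cell cannot be told apart.

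**Figure D2:**
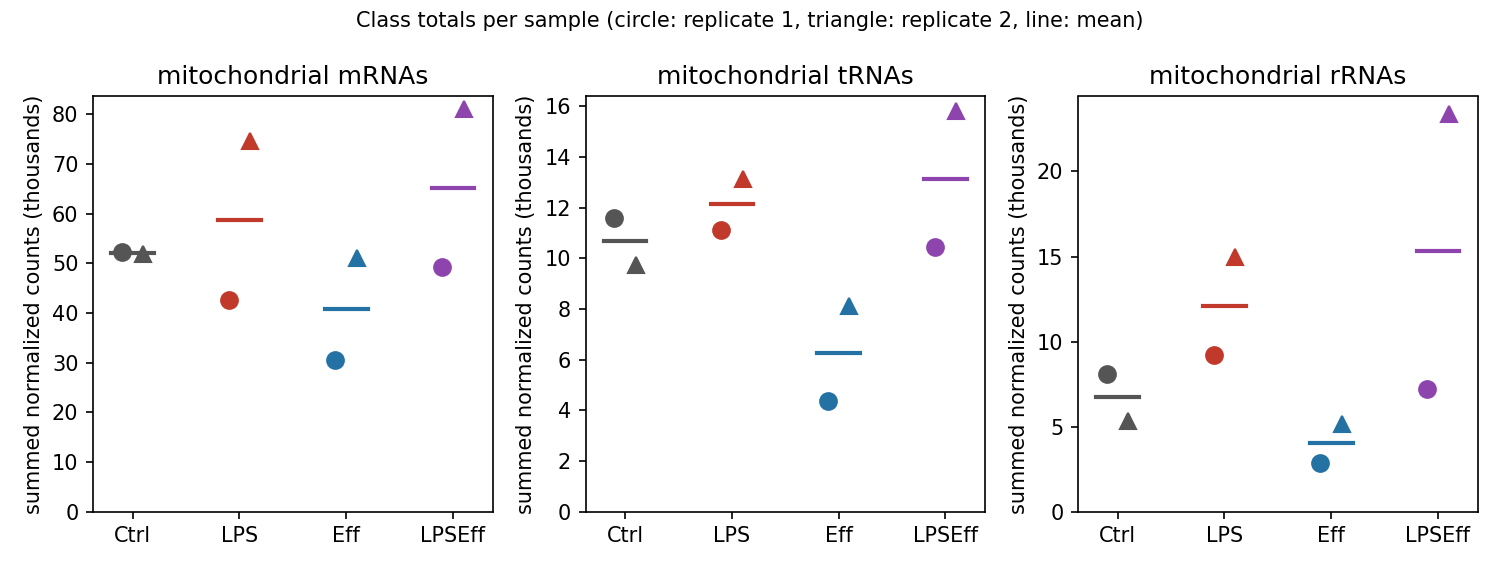
Summed normalized counts, in units of 1000, of the mitochondrial mRNAs, tRNAs and rRNAs in each sample, with circles for replicate 1, triangles for replicate 2 and a line at the group mean. The Eff samples lie lowest for tRNAs (4381 and 8125) and rRNAs (2888 and 5173), and in LPS, Eff and LPSEff the triangle lies above the circle in all 3 classes.

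As a share of all counted reads, mitochondrial genes took 1.09% and 0.962% in Ctrl, 0.744% and 1.08% in LPS, 0.575% and 0.936% in Eff as well as 0.750% and 1.27% in LPSEff. Part of the difference between this share and the normalized counts lies in scaling, as the stimulated samples had larger normalized totals. With every sample scaled to an equal total, the median of all genes shifted by -0.39 log2 for LPS against Ctrl and by -0.44 for LPSEff against Eff. Differences between stimulated and unstimulated samples below are those of the deposited scaling. Under equal totals estimates changed sign for 10 of the 26 tested members in LPS against Ctrl and for 4 in LPSEff against Eff. In LPSEff against LPS they did so for 2. These members are not named.

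The second replicate of a group tended to carry more mitochondrial RNA. Of 26 members that averaged 10 normalized counts or more, replicate 2 exceeded replicate 1 for 23 in LPS, 24 in Eff and 22 in LPSEff, with median log2 differences of 0.85, 0.87 and 0.98, whereas over all genes tested the medians were 0.13, 0.08 and 0.08. In Ctrl only 12 of 26 were higher in replicate 2. Only mt-Tt and mt-Tp were exceptions in LPS, Eff and LPSEff alike. Normalized counts of mt-Tt were 592 and 154 in Ctrl, 217 and 124.9 in LPS, 78.9 and 69.9 in Eff compared with 127 and 90.1 in LPSEff. For mt-Tp they were 1106 and 446 in Ctrl, 833 and 533 in LPS, 466 and 354 in Eff, with 1587 and 826 in LPSEff. Replicate 1 was the higher one in all 4 groups for both genes. What distinguishes the replicate numbers is not given in the sources used here.

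Differences between groups were tested for 26 members, namely 8 mRNAs, 16 tRNAs and both rRNAs. The test was limma on log2(normalized count + 1) over 16309 genes with a mean of at least 10, with Benjamini-Hochberg adjustment over all of them, and a call required an adjusted p under 0.05. The other 11 members, 5 mRNAs and 6 tRNAs, were too low: the 9 genes without a unique window plus mt-Tr (tRNA arginine, 0 to 6.33 normalized counts) and mt-Th (tRNA histidine, 0 to 10.99). The 4 pairwise comparisons share groups with each other, so their results are given side by side and are not independent.

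Same-numbered samples of different groups deviated from their group means together, with a correlation over the genes tested of 0.404 to 0.595 in all 6 pairs of groups. The sources used here do not say what a number stands for, so the fit without it is given first and a fit with the replicate number as a block beside it where a call differs.

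First, inflammatory stimulation of naïve Mϕ was considered (LPS against Ctrl). No member was called by limma, where 24% of all genes tested were, and 1 member, mt-Co1, had an unadjusted p under 0.05. edgeR on the recovered reads called 0 members (24.5% of all genes), and DESeq2 called mt-Co1 alone (24.2%). With the replicate block limma called 2 members higher (41.2% of all genes), mt-Co1 (limma adjusted p = 0.00792) and mt-Tv (limma adjusted p = 0.0253). Estimates went both ways, with 14 of 26 members above 0, against 49.4% of all genes, and a median log2 fold change of 0.02. For mt-Co1, normalized counts were 9273 and 9382 in Ctrl and 14483 and 19139 in LPS. Both LPS samples lay above both Ctrl samples, and the log2 fold change was 0.84 (SE 0.33, limma adjusted p = 0.108). Its sign turned under quantile normalization (-0.046), as did those of mt-Tv and mt-Rnr2 (-0.16 each). The other 7 mRNAs had log2 fold changes from -0.35 for mt-Nd3 to 0.16 for mt-Nd5, each with an SE of at least 0.36. The lowest after mt-Nd3, whose counts nearly equalled those of mt-Tg, was mt-Nd1 (-0.30).

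Both rRNAs had positive estimates in naïve Mϕ. Normalized counts of mt-Rnr1 were 3258 and 2420.2 in Ctrl and 4670.4 and 7431 in LPS, so that the groups did not overlap (log2 fold change 1.07, SE 0.61, limma adjusted p = 0.255). For mt-Rnr2 they were 4867 and 2915 in Ctrl and 4572 and 7519 in LPS, which overlapped (0.64, SE 0.49, limma adjusted p = 0.404). Among the tRNAs, mt-Tv was counted at 2376 and 2728 in Ctrl and 3658 and 3799 in LPS (0.55, SE 0.28, limma adjusted p = 0.206). Its groups were separated, as were those of mt-Tl2 (tRNA leucine). In all, 4 of 26 members were separated upwards and 0 downwards, against 28.4% of all genes upwards and 30.9% downwards. With equal totals only 4 of 26 members stayed above 0 and the median was -0.38, close to the shift of all genes, and quantile normalization also left 4 above 0, with a median of -0.37. The LPS samples themselves decided the sign: the median was 0.55 without LPS replicate 1 and -0.44 without LPS replicate 2.

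The same stimulus given to efferocytic Mϕ (LPSEff against Eff) gave estimates of a single sign. Every one of the 26 members had a positive log2 fold change, with a median of 0.84, where 50.3% of all genes tested were above 0. Called by limma were 2 of 26 members, both tRNAs and both higher, against 19.7% of all genes in either direction and 10.7% upwards. With the replicate block limma called 14 of 26, all higher, against 37% of all genes, namely both rRNAs, 4 mRNAs and 8 tRNAs. Normalized counts of mt-Tm were 601 and 885 in Eff and 1872 and 1770.4 in LPSEff, with 1659 and 1284 in Ctrl and 1424 and 1549 in LPS. The LPSEff samples were the highest of all 8 and the Eff samples the lowest (log2 fold change 1.32, SE 0.23, limma adjusted p = 0.00563). For mt-Tv, 1399 and 2119 normalized counts in Eff stood against 2944 and 4772 in LPSEff (1.12, SE 0.28, limma adjusted p = 0.0258). Its Eff samples were also the lowest of the series, whereas the LPSEff and LPS samples overlapped.

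The rise of mt-Tm was called in 20 of 21 other settings and that of mt-Tv in 15 of 21. Scaling the samples to equal mitochondrial mRNA sums took the call from both, with log2 fold changes of 0.64 for mt-Tm and 0.45 for mt-Tv (limma adjusted p = 0.304 and 0.456). Over all settings of limma, edgeR and DESeq2 the adjusted p ranged from 4.85e-08 to 0.304 for mt-Tm and from 1.49e-07 to 0.456 for mt-Tv, with both lowest values from DESeq2 with the replicate number as a block. Under equal totals mt-Tm stayed called at 0.87 (limma adjusted p = 0.0184) and mt-Tv did not at 0.67 (limma adjusted p = 0.0737). The call of mt-Tv was also lost without Eff replicate 1 (0.82), without LPSEff replicate 2 (0.77), under quantile normalization (0.52) and with only the groups compared in the fit. Fibroblast marker sums were higher in LPSEff than in Eff as well, and their part in these changes was not tested.

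The rRNAs were called in efferocytic Mϕ by limma with the replicate block (limma adjusted p = 0.00444 for mt-Rnr1 and 0.00471 for mt-Rnr2) and not without it. Normalized counts of mt-Rnr1 were 1278.5 and 2329 in Eff and 3058 and 12868 in LPSEff (log2 fold change 1.86, SE 0.61, limma adjusted p = 0.0683). For mt-Rnr2 they were 1609.7 and 2844 in Eff and 4171 and 10511 in LPSEff (1.63, SE 0.49, limma adjusted p = 0.0514), and limma without the block called this gene with a minimum mean above 0 (limma adjusted p = 0.0388) or of 50 (0.0454) and without LPS replicate 1 (0.0479), LPS replicate 2 (0.0490) or LPSEff replicate 1 (0.0261). Neither rRNA overlapped between these groups, although a single sample, LPSEff replicate 2, held the top value of each. The part of rRNA depletion in these differences was not tested. Among mRNAs, mt-Co1 was counted at 6544 and 8634 in Eff and 10994 and 21203 in LPSEff (1.02, SE 0.33, limma adjusted p = 0.0649). It was again the only mRNA whose groups were separated, and the other 7 mRNAs ranged from 0.41 for mt-Nd3 to 0.86 for mt-Nd6 without a call. Apart from mt-Nd3, whose counts nearly equalled those of mt-Tg, the lowest was mt-Nd1 (0.43). Under the replicate block mt-Co1 (limma adjusted p = 0.00282), mt-Nd5 (0.0158), mt-Nd6 (0.0185) and mt-Cytb (0.0477) were called higher, whereas under quantile normalization only 4 of the 8 mRNAs were above 0. On the recovered reads, edgeR called 5 members (21.5% of all genes), adding both rRNAs and mt-Co1 to the 2 tRNAs, and DESeq2 called 8 (22.9%), which included mt-Tl1, mt-Tq and mt-Tp as well.

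Further tRNAs had estimates of this size but wider errors. They included mt-Tp (1.49, SE 0.47, limma adjusted p = 0.0580), mt-Tq (tRNA glutamine, 1.29, SE 0.59, limma adjusted p = 0.170) and mt-Tl1 (tRNA leucine, 1.02, SE 0.35, limma adjusted p = 0.0794). The replicate block called all 3, with limma adjusted p = 0.000163, 0.000650 and 0.0133, along with mt-Ti, mt-Ta and mt-Ts2. The groups did not overlap for 9 of 26 members, all higher, against 29.5% of all genes. With equal totals 22 of 26 members stayed above 0 and the median was 0.39. Eff replicate 1 and LPSEff replicate 2 carried much of the median, which was 0.26 without the former, 0.31 without the latter, 1.28 without Eff replicate 2 and 1.37 without LPSEff replicate 1. In the former pair of cases mt-Tm was the member still called.

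**Figure D3:**
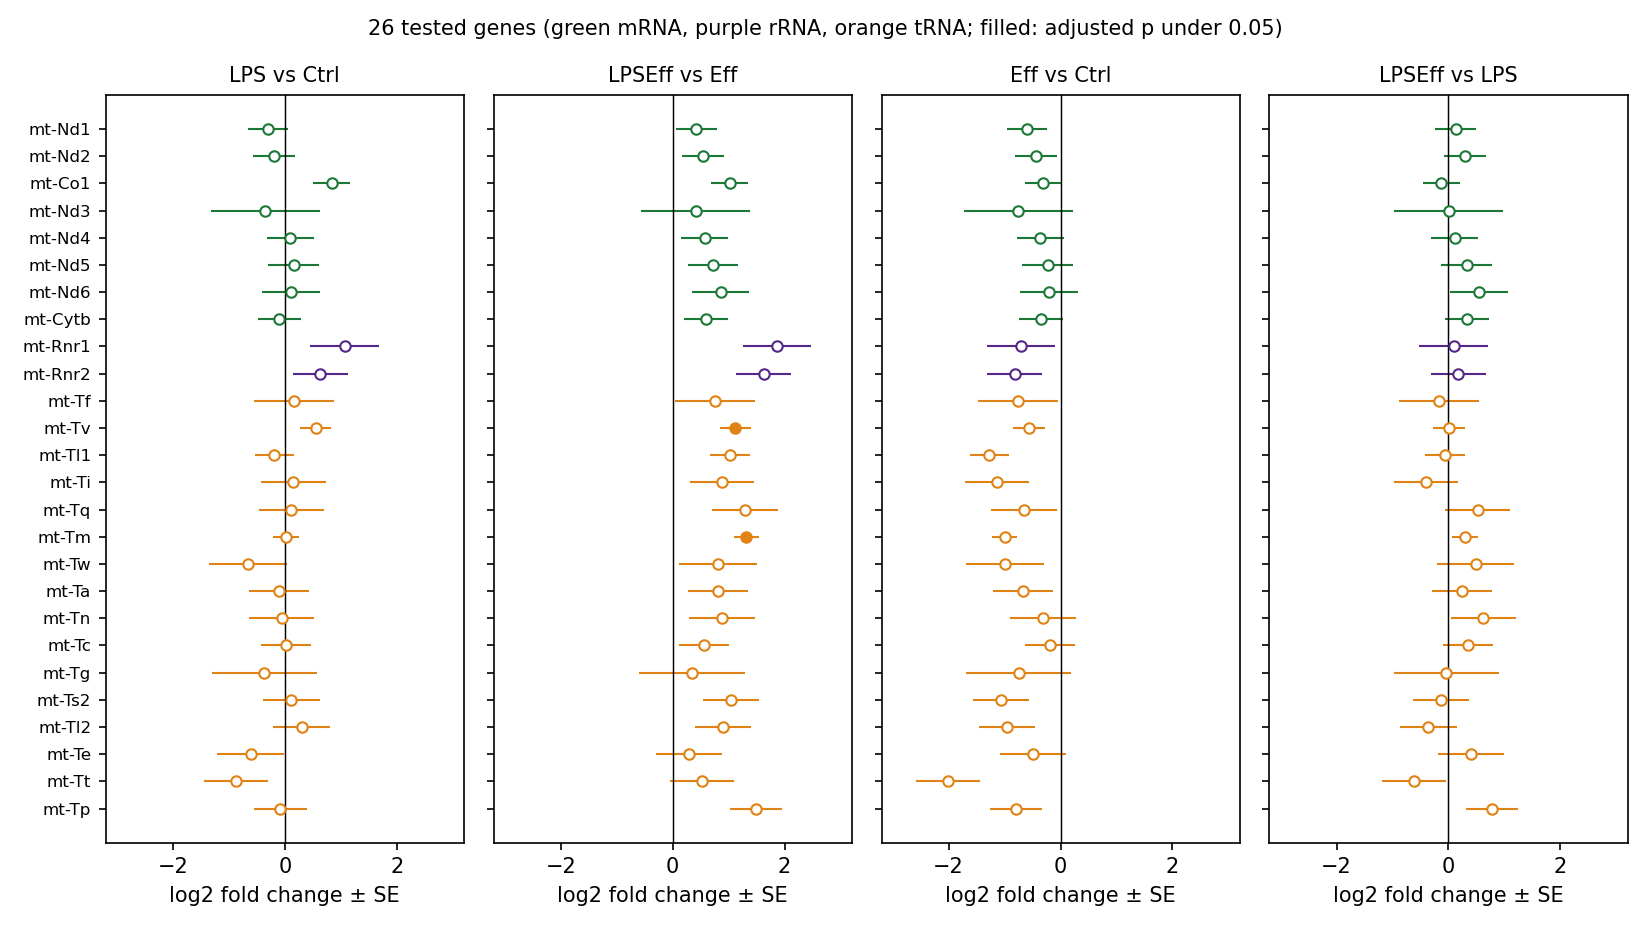
Log2 fold changes (limma without the replicate block, points) with standard errors (bars) of the 26 tested genes in 4 comparisons, with mRNAs in green, rRNAs in purple and tRNAs in orange. Filled points mark an adjusted p under 0.05 and are found only for mt-Tv (1.12) and mt-Tm (1.32) in LPSEff against Eff, where all 26 points lie right of 0, while all 26 lie left of 0 in Eff against Ctrl.

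Efferocytosis without stimulus (Eff against Ctrl) was the reverse picture in sign. All 26 members had negative log2 fold changes with a median of -0.69, where 51.5% of all genes tested were below 0. None was called by limma, where 0.251% of all genes were, and 3 had an unadjusted p under 0.05. Those were mt-Tt (-2.01, SE 0.57, limma adjusted p = 0.391), mt-Tl1 (-1.27, SE 0.35, limma adjusted p = 0.379) and mt-Tm (-0.999, SE 0.23, limma adjusted p = 0.236). DESeq2 on the recovered reads called these 3 tRNAs lower (1.3% of all genes), and edgeR called 0 members (0.0858%). With the replicate block limma called 4 tRNAs lower (2.67% of all genes), mt-Tt (limma adjusted p = 0.0111), mt-Tm (0.0228), mt-Tl1 (0.0360) and mt-Ti (0.0386). Normalized counts of mt-Tl1 were 1215 and 520.5 in Ctrl and 299.7 and 359 in Eff, without overlap. The size of both larger estimates hung on Ctrl: without Ctrl replicate 1 they were -1.04 for mt-Tt and -0.66 for mt-Tl1, and without Ctrl replicate 2 -2.98 and -1.89.

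The mRNAs were lower by less, from -0.75 for mt-Nd3 to -0.20 for mt-Nd6, with a median of -0.36. The value of mt-Nd3 was nearly that of mt-Tg (-0.75 each), and the next lowest mRNA was mt-Nd1. As an example, mt-Nd1 had 16227 and 14259 normalized counts in Ctrl and 7662 and 13153 in Eff (-0.60, SE 0.36, limma adjusted p = 0.997). Its groups were separated, but both Eff samples were far from each other. In 11 of 26 members both Eff samples lay below both Ctrl samples, against 17.8% of all genes in that direction. They were both rRNAs, mt-Nd1 and mt-Co1 among mRNAs, and 7 tRNAs. The common sign rested on Eff replicate 1: without that library 13 of 26 members were above 0 and the median was -0.01, and without Eff replicate 2 all 26 were lower with a median of -1.18. In Eff replicate 2, mt-Cytb (15306 normalized counts) and mt-Nd5 (6124) were above both Ctrl samples, at 14114 and 15217 for mt-Cytb and 5025 and 5879 for mt-Nd5. Fibroblast marker sums were higher in both Eff samples than in both Ctrl samples, and their part in these differences was not tested.

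Finally, efferocytic and naïve Mϕ were compared under stimulation (LPSEff against LPS). No member was called by limma, none had an unadjusted p under 0.05, and 0.773% of all genes were called. edgeR also called 0 members (0.773% of all genes), as did DESeq2 (2.4%). With the replicate block limma called mt-Tp higher (0.78, limma adjusted p = 0.0393), where 6.97% of all genes were called. The median log2 fold change was 0.15 with 18 of 26 members above 0, against 49.7% of all genes, and estimates ranged over members from -0.62 for mt-Tt to 0.78 for mt-Tp. Both LPSEff samples exceeded both LPS samples for 2 tRNAs, mt-Tm and mt-Tn (tRNA asparagine, 19.4 and 20.3 in LPS, 29.3 and 33.0 in LPSEff), against 19.3% of all genes. The sign of the median turned with the library left out, from -0.20 without LPS replicate 1 to 0.60 without LPS replicate 2, and from 0.62 without LPSEff replicate 1 to -0.23 without LPSEff replicate 2.

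Whether the response to LPS/IFNγ differed between efferocytic and naïve Mϕ was tested as the difference of both log2 fold changes. It was positive for all 26 members with a median of 0.75, where 51.5% of all genes were above 0. As limma called 0% of all genes in this contrast, it called no member either, and 3 members had an unadjusted p under 0.05, namely mt-Tm (1.29, SE 0.32, limma adjusted p = 1.00), mt-Tp (1.57, SE 0.66) and mt-Tl1 (1.21, SE 0.50). Without the block neither edgeR nor DESeq2 called a member or any other gene (0%), nor did limma with the replicate block (0%). DESeq2 with the block did call members in this contrast, and their number is given in the last paragraph. Ctrl and Eff enter this difference along with both stimulated groups, so it is not independent of the comparisons above. Its median was 0.28 without Eff replicate 1, 0.33 without LPSEff replicate 2 and 0.39 without LPS replicate 1, and 1.17 to 1.34 without their counterparts.

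Proportions within the mitochondrial mRNAs do not depend on how the samples are scaled to each other. The share of mt-Co1 in all mitochondrial mRNA counts was 17.7% and 18.1% in Ctrl, 34.0% and 25.6% in LPS, 21.4% and 16.9% in Eff as well as 22.3% and 26.2% in LPSEff. All 4 stimulated samples lay above all 4 unstimulated ones, though Eff replicate 1 and LPSEff replicate 1 were separated by less than the Eff samples from each other. The share of mt-Nd1 ran the other way, with 31.1% and 27.5% in Ctrl, 21.8% and 22.0% in LPS, 25.04% and 25.74% in Eff compared with 22.8% and 19.9% in LPSEff. Here too no stimulated sample reached an unstimulated one.

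Since shares sum to 100, a larger share of mt-Co1 lowers that of every other mRNA. With mt-Co1 left out, mt-Nd1 made up 37.8% and 33.6% in Ctrl, 33.0% and 29.6% in LPS, 31.9% and 31.0% in Eff, with 29.4% and 27.0% in LPSEff. Stimulated samples still lay below the unstimulated ones within each pair of groups, but LPS replicate 1 was above both Eff samples. The share of mt-Cytb without mt-Co1 was 32.8% to 38.0% over the 8 samples and did not separate the groups. An exact permutation test of 2 against 2 samples cannot give a two-sided p below 0.333, so these shares are given as values.

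**Figure D4:**
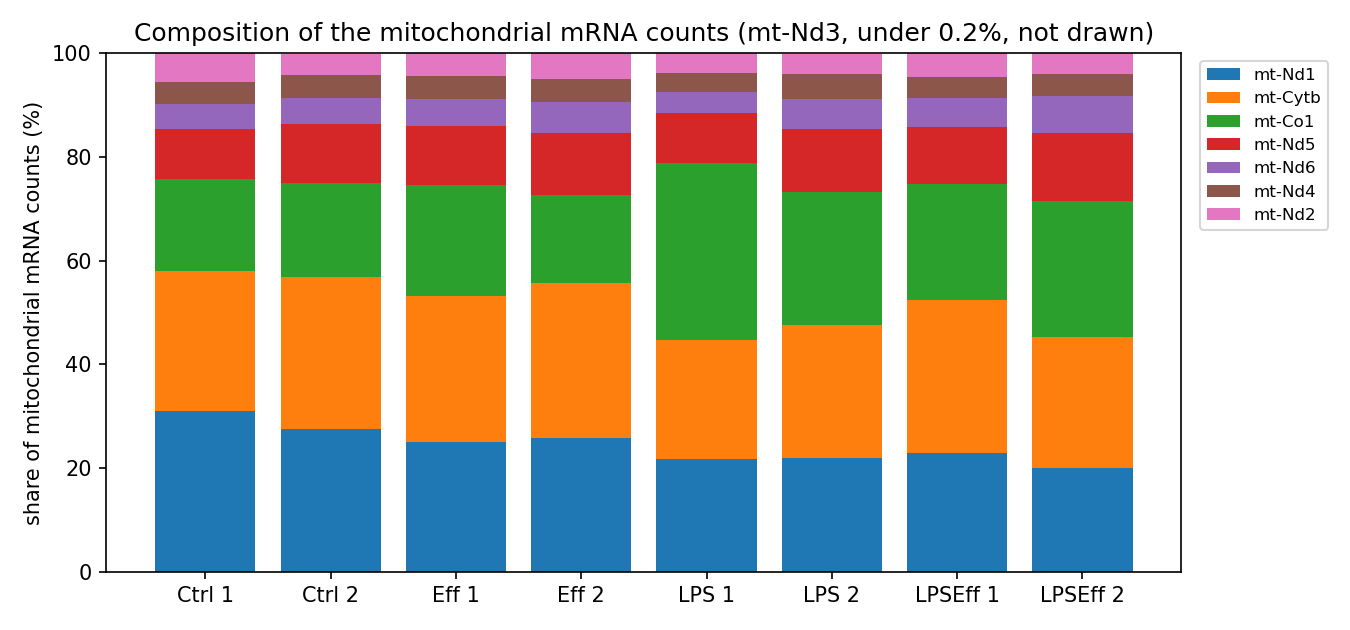
Stacked bars give the percentage of the mitochondrial mRNA counts that each mRNA took in each of 8 samples, with the unstimulated samples on the left and the LPS/IFNγ-stimulated samples on the right. The mt-Co1 segment spans 16.9% to 21.4% in the 4 unstimulated and 22.3% to 34.0% in the 4 stimulated samples, while the mt-Nd1 segment shrinks from a range of 25.04% to 31.1% to a range of 19.9% to 22.8%.

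Members read from the light strand were 9, mt-Nd6 and 8 tRNAs. The complex I subunit mt-Nd6 is the only mRNA among them and overlaps the end of mt-Nd5 on the opposite strand by 14 bases. Its normalized count was 41.7% to 54.8% of that of mt-Nd5 over the 8 samples. Both LPSEff samples (49.9% and 54.8%) lay above both LPS (41.7% and 48.7%) and both Ctrl samples (49.3% and 44.2%) and overlapped with Eff (45.1% and 50.3%). Light-strand tRNAs took 19.9% of tRNA counts in each sample of Ctrl, 15.8% and 19.7% in LPS, 23.4% and 21.5% in Eff as well as 27.3% and 23.4% in LPSEff. All efferocytic samples were above all naïve ones, and LPSEff replicate 2 and Eff replicate 1 were equal at this precision. Most light-strand tRNA counts were those of mt-Tq and mt-Tp (means of 1040 and 769 normalized counts over the 8 samples). In Eff against Ctrl the median log2 fold change was -0.57 for the 6 tested light-strand tRNAs and -0.996 for the 10 tested heavy-strand tRNAs. In LPSEff against LPS these medians were 0.46 and -0.10, with ranges of 0.25 to 0.78 and -0.62 to 0.49.

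Relative to mRNA, tRNA counts amounted to a ratio of 0.222 and 0.188 in Ctrl, 0.261 and 0.176 in LPS, 0.143 and 0.159 in Eff compared with 0.212 and 0.195 in LPSEff. Eff samples had the lowest ratios of the series, whereas the other 3 groups overlapped. The ratio of rRNA to mRNA was 0.155 and 0.103 in Ctrl, 0.217 and 0.2001 in LPS, 0.0944 and 0.101 in Eff, with 0.147 and 0.288 in LPSEff. Here both stimulated groups were above their unstimulated counterparts without overlap, and the part of rRNA depletion in this was not tested. Within the rRNAs, mt-Rnr1 reached 66.9% and 83.0% of mt-Rnr2 in Ctrl, 102.1% and 98.8% in LPS, 79.4% and 81.9% in Eff as well as 73.3% and 122% in LPSEff, so the groups were separated for naïve Mϕ and not for efferocytic ones.

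Nuclear genes that maintain mitochondrial DNA, make and process mitochondrial RNA or regulate mitochondrial biogenesis were examined beside these members. They formed 6 lists with 62 genes, of which 59 were tested. In naïve Mϕ LPS/IFNγ changed 19 of the 59 by limma, against 24% of all genes, 2 upwards and 17 downwards, with a median log2 fold change of -0.49 over the tested genes against -0.01 over all genes. The largest change was a rise of Cmpk2, a mitochondrial nucleotide kinase known as an interferon-induced gene, from 109 and 41.1 normalized counts in Ctrl to 14204 and 7244 in LPS (7.22, SE 0.67, limma adjusted p = 0.000266). Ppargc1b, a coactivator of mitochondrial biogenesis, fell by 2.37 on the log2 scale (SE 0.49, limma adjusted p = 0.0105), from 128 and 52.0 to 12.9 and 17.3 normalized counts. The related coactivator Pprc1 fell by 1.48 (SE 0.28, limma adjusted p = 0.00735). Among modifying enzymes, the rRNA methyltransferase Mrm3 fell by 1.65 (SE 0.41, limma adjusted p = 0.0230) and the pseudouridine synthase Pus1 by 1.41 (SE 0.18, limma adjusted p = 0.00114).

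By list, the calls in naïve Mϕ comprised 7 of 19 genes of rRNA and tRNA modification, all lower, and 7 of 16 of mRNA stability and decay, 6 lower and 1 higher. Of mitochondrial transcription 1 of 4 tested genes was called, of transcript end processing 1 of 5, both lower, of mtDNA maintenance 1 of 10, higher, and of biogenesis regulators 2 of 5, both lower. In efferocytic Mϕ the same stimulus changed 8 of 59, against 19.7% of all genes, 2 upwards and 6 downwards, with a median of -0.38 against 0.01 over all genes. Cmpk2 rose from 84.1 and 22.6 normalized counts in Eff to 15622 and 8950 in LPSEff (8.04, SE 0.67, limma adjusted p = 0.000149). Pnpt1, a polynucleotide phosphorylase that degrades mitochondrial RNA and is known to respond to interferon, rose by 1.14 (SE 0.22, limma adjusted p = 0.00875). Ppargc1b fell by 2.26 (SE 0.49, limma adjusted p = 0.0147), Mrm3 by 1.57 (SE 0.41, limma adjusted p = 0.0314) and Mto1, which modifies the wobble base of several mitochondrial tRNAs, by 1.32 (SE 0.23, limma adjusted p = 0.00607).

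**Figure D5:**
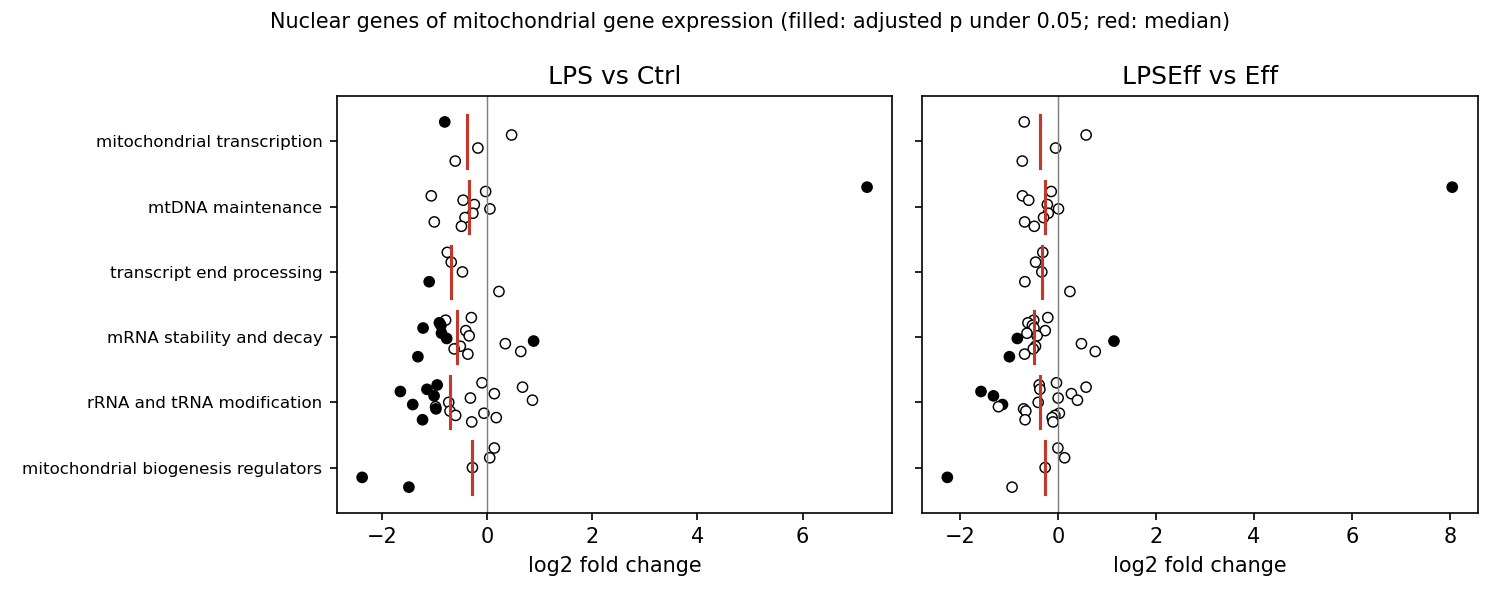
Log2 fold changes (limma) of the 59 tested nuclear genes of mitochondrial gene expression by list, for LPS against Ctrl and LPSEff against Eff, with filled points for an adjusted p under 0.05 and a red line at the median of each list. Cmpk2 stands far right in both panels (7.22 and 8.04), and the median of all 59 is -0.49 in the first and -0.38 in the second.

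Neither Eff against Ctrl nor LPSEff against LPS had a call among the 59 genes by limma, edgeR or DESeq2, with 0 and 5 genes at an unadjusted p under 0.05 by limma and medians of 0.01 and 0.20. Fewer of the 59 were called in LPS against Ctrl when either Ctrl sample was left out. The same held in LPSEff against Eff when Eff replicate 1 or either LPSEff sample was left out. Fewer of all genes were called in those fits too. In the fit with the replicate block 29, 22 and 2 of the 59 were called in LPS against Ctrl, LPSEff against Eff and LPSEff against LPS. That fit called 41.2%, 37% and 6.97% of all genes in these comparisons. Nuclear-encoded respiratory subunits were given a list of 35 genes for comparison with the mitochondrial mRNAs, and all 35 were tested. LPS against Ctrl changed 2 of them, where 24% of all genes were called, with the complex I subunit Ndufs7 lower (-0.72, SE 0.21, limma adjusted p = 0.0366) and the Rieske protein of complex III, Uqcrfs1, higher (0.79, SE 0.21, limma adjusted p = 0.0293), and the median over the list was -0.07. In LPSEff against Eff, Ndufs7 was the only call (-0.85, SE 0.21, limma adjusted p = 0.0223), where 19.7% of all genes were called, with a median of -0.01. Leaving out any sample of the series lowered the first count, and leaving out any Eff or LPSEff sample lowered the second. Fewer of all genes were called in those fits too. The replicate block raised the first count to 7. With the block 41.2% of all genes were called in LPS against Ctrl. Ndufs7 and Uqcrfs1 were named after their values were seen. The corresponding medians of the 8 tested mitochondrial mRNAs were 0.00 and 0.58. In LPSEff against Eff the log2 ratio of summed mitochondrial mRNA was 0.67, but 0.22 under equal totals. On leaving out a sample it ranged from 0.27 without LPSEff replicate 2 to 1.09 without Eff replicate 2. Under equal totals the number of calls rose to 33 of 59 and 12 of 35 in LPS against Ctrl and to 30 and 11 in LPSEff against Eff, where 35.2% and 34.2% of all genes were called, as that scaling shifts all genes downwards.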

How the data were processed

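Total RNA-seq libraries of 8 samples in 4 groups of 2 were analysed from a table of normalized counts (a signal, not raw counts), which the authors deposited after trimming with cutadapt, removing rRNA reads with Bowtie2, mapping to mm39 with STAR, counting with htseq-count at default settings and dividing by DESeq2 size factors. Tool versions and the annotation release are not given in the sources used here. Groups and replicate numbers were taken from the sample titles. Pairing by number rests on the data alone (correlated deviations, 0.404 to 0.595 between groups). Gene names came from GENCODE M39 (98.9% of 55359 identifiers matched). Whole reads were recovered from the value of 1 read per sample (tolerance 0.01), with 3481288 to 12020918 reads per sample; intervals and floors cover counting error only.

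Log2(normalized count + 1) was fitted in R 4.3.3 with limma 3.58.1 with a trend, 4 group means in 1 model with 4 residual degrees of freedom, for 16309 genes whose mean reached 10. Alternatives were pseudocounts of 0.5 and 5, a minimum mean above 0 or of 50, a fit of each group pair alone, the replicate number as a block, equal totals, quantile normalization, edgeR 4.0.16 (TMM), DESeq2 1.42.0 and leaving out each sample. Equal mitochondrial mRNA sums and both count tools with the block were added after seeing the data. Scripts were tested on simulated data. Nuclear copies were exact matches of 50-base windows on either strand. All 37 members were accounted for. Values were given for the mRNAs, rRNAs and tRNAs with a mean of at least 10, in full where a result turned on them and as ranges otherwise. Nuclear genes were named when among the 5 largest called changes. Class totals and shares carry no test. Members and lists were chosen with earlier results of these data known.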

Additional observations from a re-analysis of the deposited data

Results flagged for a closer look

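The share of light-strand tRNAs in mitochondrial tRNA counts moved in opposite directions with LPS/IFNγ in naïve and in efferocytic Mϕ. This share mostly reflects mt-Tq and mt-Tp, with means of 1040 and 769 normalized counts over the 8 samples. The means of mt-Ta, mt-Tc, mt-Te and mt-Tn were 219, 156, 31.4 and 23.2. The share thus weighs the light-strand tRNAs unequally. In LPS against Ctrl, the median log2 fold change was -0.07 for the 6 tested light-strand tRNAs and 0.07 for the 10 heavy-strand ones. In LPSEff against Eff these medians were 0.85 and 0.89. The share was lower in both LPS samples than in both Ctrl samples, with a mean difference (LPS minus Ctrl) of -2.11 percentage points. In both LPSEff samples the share was higher than in both Eff samples. The closest samples of LPSEff and Eff were equal at 23.4% once rounded, and the difference between the 2 responses was not tested. On the naïve side the value rested on LPS replicate 1, without which it was -0.16 percentage points, and in efferocytic Mϕ the mean difference of 2.88 was 0.924 without LPSEff replicate 1.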

How the results depend on the processing

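The 2 members called by limma without the block, mt-Tm and mt-Tv in LPSEff against Eff, kept their sign in all 21 alternatives. In LPS against Ctrl, mt-Co1 and mt-Tv, called only by other fits, turned negative under quantile normalization (-0.046 and -0.16). In LPSEff against Eff, with 2 members called, the number was 1 with equal totals, 1 with quantile normalization, 5 with edgeR, 8 with DESeq2, 0 with equal mitochondrial mRNA sums and 1 to 5 on leaving out a sample. In LPS against Ctrl, with 0, it was 1 with quantile normalization (mt-Nd1), 1 with DESeq2 (mt-Co1) and 0 to 1 on leaving out a sample (mt-Tt without Ctrl replicate 2). In Eff against Ctrl, with 0, DESeq2 called 3. With the replicate block, limma called 2 members in LPS against Ctrl, 14 in LPSEff against Eff, 4 in Eff against Ctrl and 1 in LPSEff against LPS, and it called no member in the difference of responses. Over all genes its shares were 41.2%, 37%, 2.67%, 6.97% and 0%. edgeR with the block called 3, 15, 4 and 1, and DESeq2 with the block 3, 16, 5 and 1, plus 2 in the difference of responses. For both count tools with the block, quantile normalization, equal mitochondrial mRNA sums and left-out samples, the share of all genes called is not given. Those counts are therefore not a result about the members. Of the nuclear expression genes (19, 8 and 0 called in LPS against Ctrl, LPSEff against Eff and LPSEff against LPS) the block called 29, 22 and 2, equal totals 33 and 30 in the first pair, and leaving out a sample 4 to 17 and 2 to 9. The lowest counts came without Ctrl replicate 1 and without Eff replicate 1. Of the respiratory subunits (2 and 1) the block called 7 in LPS against Ctrl, equal totals 12 and 11, and DESeq2 1 in LPS against Ctrl. Leaving out any sample lowered the first count, with fewer of all genes called in LPS against Ctrl in each such fit. No left-out sample raised the second count. The log2 ratio of class totals in LPS against Ctrl was 0.17 for mRNA and 0.19 for tRNA, and -0.25 and -0.22 with equal totals. On leaving out a sample it ranged from -0.29 to 0.52 for mRNA in LPS against Ctrl, -0.77 to -0.026 for mRNA and -1.28 to -0.39 for tRNA in Eff against Ctrl, -0.21 to 0.38 for tRNA and -0.74 to 0.95 for rRNA in LPSEff against LPS, and 0.84 to 2.54 for rRNA in LPSEff against Eff. The causes were not tested. With 2 samples per group, and 9 members without unique sequence, absent calls say little about absent changes.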
